A study of Mus musculus with 5 samples.

Results

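Replication-dependent histone genes encode the core and linker histones that package newly made DNA. They sit in a few dense clusters, are mostly intronless, and are transcribed mainly in S phase. Their mRNAs end in a conserved stem-loop instead of a poly(A) tail, and the stem-loop binding protein SLBP recognises it. The genes were chosen by symbol: the linker genes H1f1 to H1f5, and every gene named H2ac, H2bc, H3c or H4c plus a number. Genes holding an older Hist1h, Hist2h, Hist3h or Hist4h name for these genes were added. Pseudogenes were left out, and so was the linker gene H1f6, though it also holds an older Hist name. This gave 66 of the 27179 genes in the count tables, 62 by the current symbol and 4 by an older one (H2aw, H2bu2, H4f16 and H4bc24, the last an H2B gene once named Hist1h2br). They comprise 5 linker H1 genes, 18 H2A, 18 H2B, 12 H3 and 13 H4 genes. The large cluster on chromosome 13 holds 53 of them within 2219.2 kb, a smaller one on chromosome 3 holds 10 within 50.3 kb, chromosome 11 holds H2aw and H2bu2, and chromosome 6 holds H4f16.

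The mark measured was H3K14ac, acetylated lysine 14 of histone H3. CUT&Tag uses an antibody (here abcam, ab52946) to bring the Tn5 transposase to a mark, so that DNA beside it is cut and tagged. Kat7 encodes HBO1, an enzyme known to place this mark, and H3K14ac is commonly found at active promoters. The knockout libraries (2) came from mice of genotype Hbo1def/def; T/+, and the control libraries (2) from Hbo1def/+; T/+ mice, so that the controls also carried 1 def allele. All mice were male C57BL/6 and received poly(I:C) to switch on Mx1-cre, an interferon-inducible recombinase that acts in blood cells and in other tissues that respond to interferon. The cells were LSK cells sorted from bone marrow, lineage-negative cells with Sca-1 and Kit on their surface, among which are the stem cells and early progenitors of blood. The labels spell out neither def nor T/+, give no age, and do not say that the replicates were separate animals, so the p-values measure the spread between libraries, which may be technical. Reads had been counted over the gene body, over 5 kb upstream of the start, and over 5 kb downstream of the end of each gene.

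The stem-loop was looked for on the sense strand within 200 bases of each gene's end in GRCm38.p6, as a perfect inverted repeat with a stem of 6 bases starting with GG and a loop of 4 bases starting with TT. It was found in 56 of 66 histone genes (84.8%) and in 18 of 25135 other genes (0.0716%). The 5 forms found in more than 1 gene are shown because they tie the genes to 1 mode of mRNA processing, each read from the named gene, with the stem in capitals and the loop in lower case.
H1f1 (shared by 36 genes of types H1, H2A, H2B and H3, chr13:23764392-23764407, plus strand): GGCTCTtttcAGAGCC
H4c12 (shared by 8 genes, all H4, chr13:21750150-21750165, minus strand): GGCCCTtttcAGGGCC
H2ac21 (shared by 7 genes of types H2A, H2B and H3, chr3:96220333-96220348, plus strand): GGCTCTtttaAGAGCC
H4c11 (shared by 2 H4 genes, chr13:21735437-21735452, plus strand): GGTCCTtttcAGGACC
H4c14 (shared by 2 H4 genes, chr3:96262939-96262954, minus strand): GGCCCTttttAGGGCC

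Promoters running from 250 bases before to 50 bases after the start were available from RefSeq (GRCm38.p6) for 61 of the 66 genes. The genes of each type with the densest mark over the gene body (by the mean CPM per kb of all 4 libraries) among those with a promoter sequence are printed, with the testis-type H2A gene H2ac1, which behaved differently. Of the H4 genes so ranked, H4c3 was denser than the printed H4c12 in both knockouts, at 30.2 and 6.21 CPM per kb, against 29.6 and 5.26 CPM per kb for H4c12. Capitals mark 6 motifs searched on either strand. They are the TATA box (letters TATAAA), the box whose letters are CCAAT, the octamer ATTTGCAT bound by Oct-1, the E2F motif TTTCGCGC, the H4 subtype element with letters GGTCCG, and the AC box of H1 genes with letters AAACACA. Adjacent or overlapping matches run together in the capitals.
H1f5 (chr13:21780576-21780875, minus strand): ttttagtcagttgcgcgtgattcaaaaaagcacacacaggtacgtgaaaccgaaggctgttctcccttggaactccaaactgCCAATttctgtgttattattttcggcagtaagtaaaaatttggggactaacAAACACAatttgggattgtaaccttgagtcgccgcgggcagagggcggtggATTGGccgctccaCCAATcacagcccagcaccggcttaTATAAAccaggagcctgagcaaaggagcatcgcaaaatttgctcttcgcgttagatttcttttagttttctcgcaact
H2ac21 (chr3:96219635-96219934, plus strand): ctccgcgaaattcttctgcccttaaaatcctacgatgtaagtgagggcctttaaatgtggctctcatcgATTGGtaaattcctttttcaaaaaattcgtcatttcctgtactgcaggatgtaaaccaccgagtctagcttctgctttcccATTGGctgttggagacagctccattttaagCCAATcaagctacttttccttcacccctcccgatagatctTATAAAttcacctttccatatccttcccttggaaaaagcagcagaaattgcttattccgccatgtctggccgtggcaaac
H2bc7 (chr13:23574158-23574457, minus strand): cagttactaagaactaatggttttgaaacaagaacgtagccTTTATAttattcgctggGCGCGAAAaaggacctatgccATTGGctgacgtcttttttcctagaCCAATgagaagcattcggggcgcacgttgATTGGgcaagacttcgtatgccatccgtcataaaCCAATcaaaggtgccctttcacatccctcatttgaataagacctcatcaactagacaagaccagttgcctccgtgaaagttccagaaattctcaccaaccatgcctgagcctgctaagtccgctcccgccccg
H3c11 (chr13:21783348-21783647, minus strand): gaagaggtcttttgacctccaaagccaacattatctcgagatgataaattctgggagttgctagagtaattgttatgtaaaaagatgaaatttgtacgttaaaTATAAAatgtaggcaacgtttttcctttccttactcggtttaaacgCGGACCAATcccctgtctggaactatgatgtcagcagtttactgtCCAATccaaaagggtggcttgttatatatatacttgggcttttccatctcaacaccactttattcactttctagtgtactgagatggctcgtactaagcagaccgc
H4c12 (chr13:21750504-21750803, minus strand): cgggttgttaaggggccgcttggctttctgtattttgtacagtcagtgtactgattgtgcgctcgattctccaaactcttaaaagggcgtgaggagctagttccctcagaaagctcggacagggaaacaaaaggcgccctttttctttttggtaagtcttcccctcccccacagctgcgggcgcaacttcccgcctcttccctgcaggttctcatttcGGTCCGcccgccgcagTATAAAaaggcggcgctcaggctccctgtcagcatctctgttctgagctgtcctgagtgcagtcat
H2ac1 (chr13:23934187-23934486, plus strand): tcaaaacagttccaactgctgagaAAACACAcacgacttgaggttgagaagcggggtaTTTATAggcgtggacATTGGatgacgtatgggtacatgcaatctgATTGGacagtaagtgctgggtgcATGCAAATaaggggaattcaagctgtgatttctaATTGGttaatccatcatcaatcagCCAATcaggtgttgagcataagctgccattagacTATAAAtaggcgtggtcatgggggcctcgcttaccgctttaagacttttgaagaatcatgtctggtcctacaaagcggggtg

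TATAAA occurred in 57.4% of the 61 histone promoters and in 13.1% of 18458 promoters of all genes, and CCAAT in 85.2% and 39.2%. The motifs were divided among the histone types. All 5 H1, 18 H2A, 16 H2B and 10 H3 promoters held CCAAT, against 3 of 12 H4 promoters. GGTCCG occurred in 11 of 12 H4 promoters, in 1 H2B and 1 H3 promoter, and in 10.5% of all promoters. The octamer occurred in 7 H2A and 6 H2B promoters (1.71% of all promoters), and TTTCGCGC in 5 H2A and 4 H2B promoters (0.45%). AAACACA occurred in 4 of 5 H1 promoters, and also in 2 H2A and 2 H2B promoters (6.25% of all promoters). The median GC content was 45.3% in histone promoters and 56.0% in all promoters. The median ratio of observed to expected CpG was 0.75 in histone promoters and 0.57 in all promoters. A match to these letters is a description of the sequence and not a shown binding site.

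The libraries differed in depth. Gene body counts totalled 4723549 and 6031189 in the knockout libraries, against 12386891 and 10572534 in the controls. Upstream totals lay between 869859 and 1164409, and downstream totals between 677213 and 1260351, so the flanks rest on fewer reads. Counts of single genes are printed unscaled, whereas CPM, folds and ratios allow for these totals. The summed gene body signal of 10 LSK and stem cell markers was 1479 and 1513 CPM (scaled counts per 1e6 counts) in the knockouts, against 1815 and 1619 CPM in the controls, while their median gene exceeded 92.9% to 93.3% of genes in the knockouts, against 87.3% to 87.9% in the controls. Sums over markers of other cells were also lower in both knockouts for stromal and endothelial cells (6 genes, 277 and 312 CPM, against 465 and 392 CPM in the controls), B cells (4 genes, 129 and 153 CPM, against 232 and 261 CPM) and T cells (4 genes, 108 and 102 CPM, against 173 and 136 CPM). Those of 4 myeloid markers (176 and 127 CPM in the knockouts, against 139 and 108 CPM in the controls) and of 4 erythroid markers (35.5 and 22.4 CPM, against 33.5 and 26.9 CPM) overlapped between the groups. The part of these markers in the histone results was not tested. Kat7 itself had a gene body signal of 88.2 and 39.1 CPM in the knockouts, against 30.7 and 30.1 CPM in the controls (log2 fold 1.06, edgeR adjusted p = 0.00668). Upstream of Kat7 the signal was 19.3 and 24.4 CPM in the knockouts, against 45.1 and 40.6 CPM in the controls, which did not pass (log2 fold -0.97, edgeR adjusted p = 0.0872), and neither did the downstream log2 fold of -0.46. Whole-gene H3K14ac counts do not show whether the targeted exons were lost, so they do not check the genotype.

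Relative to library totals, histone gene bodies carried far more H3K14ac signal in the knockout libraries than in the controls. The deposited histone lengths had a median of 440 bp, against 12072 bp over all genes, so levels are given as CPM per kb of deposited length. Among the 57 members with at least 1 gene body count, the median density was 14.7 and 3.82 CPM per kb in the knockouts, against 0.343 and 0.412 CPM per kb in the controls. The median over all gene bodies was 0.859 and 0.870 CPM per kb in the knockouts, against 0.767 and 0.782 CPM per kb in the controls. The typical histone gene thus stood above 99.2% and 97.9% of genes in the knockout libraries, against 26.0% and 24.7% in the controls. A density per kb does not make these short gene bodies alike to long ones, which reach further from their start. Other genes of like length were not compared. CPM values are relative to the scaled total of each library, so they do not show whether the absolute amount of the mark differed. In bulk cells, a different fraction of cells with the mark and a different amount of mark per cell cannot be told apart either.

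**Figure D1:**
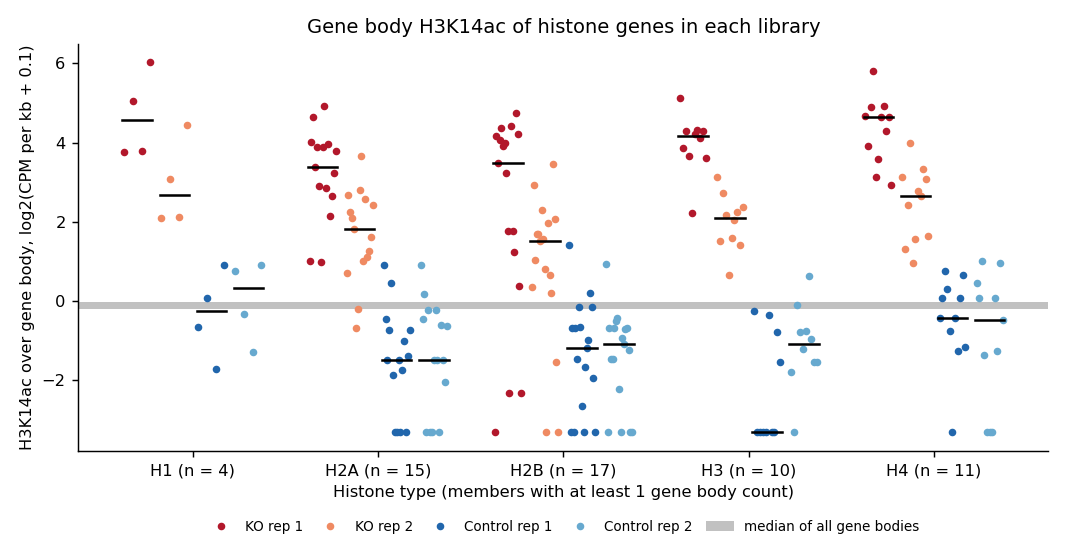
H3K14ac density over the gene body of each histone gene with at least 1 count, as log2(CPM per kb + 0.1), by histone type and library, with black bars at the medians and a grey band at the median of all gene bodies. Most knockout points lie above the grey band and most control points below it, and knockout replicate 1 lies above knockout replicate 2 in every type.

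All 66 members were accounted for. In 9 there was no gene body count in any library, in 53 each knockout library exceeded each control library, in 1 (H2bc1) each lay below, and in 3 the groups overlapped. Knockout libraries lay above the controls in 37% and below in 37.9% of the 24662 genes with a count. With edgeR's quasi-likelihood test and no count filter, 52 of the 57 members with counts passed as higher at an adjusted p under 0.05 and 0 as lower, against 18.6% of all genes called higher and 10.8% lower. The 5 that did not pass were H2bu2, H2bc23, H4bc24, H2bc1 and H2ac1. After the usual filter on low counts 42 members were tested and 42 were called higher, 0 lower, where 23.1% of the 21393 genes tested were called higher and 15.2% lower. The filter bears on that count: in 32 of the 42, both controls held under 10 counts, so at least these genes passed it only through the knockouts. Its minimum of 10 counts is scaled to library depth, so the deeper control libraries needed more than 10 counts to pass. At an unadjusted p under 0.05, 0 members were lower, and DESeq2 and limma also called 0 lower while calling 41 and 42 higher. Over the 55 members for which a ratio of pooled counts could be formed, with groups at 0 set to a floor of 3 counts over both libraries, the median log2 ratio was 4.49. With edgeR, the median log2 fold was 4.61 over the 42 tested members, against 0.02 over all genes tested. Without the filter it was 4.53 over the 57 members with counts, against -0.0018 over all genes.

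Knockout replicate 1 exceeded knockout replicate 2 in 56 of 57 members. Its median excess was 3.23-fold over the 55 members with a ratio, while over all genes the median ratio was 1.00. The 2 knockout libraries therefore differed at histone genes by several fold, yet each lay above each control in the 53 genes given above. Without knockout replicate 1, 35 of 37 tested members remained higher, with a median log2 fold of 3.34. A loess correction for GC content lowered the median log2 fold of the tested members to 3.01, against 4.61 without it, and 36 of the 42 then passed. Copies of histone genes are nearly identical in sequence, so reads may be shared or lost among them, and values of single genes are uncertain in that respect.

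The linker H1 genes, whose proteins bind the DNA between nucleosomes, had 4 of 5 members with counts and all 4 were higher. H1f5 was densest, with 65.0 and 21.5 CPM per kb in the knockouts, against 1.76 and 1.77 CPM per kb in the controls. Its counts were 236 and 97 in the knockouts, against 12 and 12 in the controls, a log2 fold of 4.59 ± 0.51 (SE, edgeR adjusted p = 6.68e-11). H1f2 had 280 and 88 counts in the knockouts, against 15 and 11 in the controls (log2 fold 4.64 ± 0.51, edgeR adjusted p = 4.95e-11). H1f4 and H1f1 were also higher, by 5.08 and 3.01 on the log2 scale. Their knockout and control counts did not overlap, with H1f1 at 54 and 21 in the knockouts, against 4 and 12 in the controls. H1f3 held no gene body count in any library.

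Of 18 H2A genes, whose products pair with H2B in the nucleosome, 14 had knockouts above controls, 3 had no counts, and H2ac1 overlapped. H2ac21 was densest, with 30.1 and 12.5 CPM per kb in the knockouts, against 0.251 and 0.755 CPM per kb in the controls. It had 64 and 33 counts in the knockouts, against 1 and 3 in the controls (log2 fold 5.29 ± 0.74, edgeR adjusted p = 4.16e-08). H2ac4 had 42 and 20 counts in the knockouts, against 1 and 0 in the controls, a pooled ratio of 104 (95% exact counting interval 17.9 to 4154). With so few control counts the size of such a ratio is poorly bounded above. H2ac20 had 31 and 18 counts in the knockouts, against 0 and 1 in the controls, a pooled ratio of 81.8 (interval 14.0 to 3297). H2aw on chromosome 11 had 148 and 70 counts in the knockouts, against 10 and 11 in the controls (log2 fold 4.16 ± 0.55, edgeR adjusted p = 1.4e-08). All 3 passed the test, with knockout counts above both control counts.

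The 18 H2B genes held the widest range of differences. H2bc11 had 37 and 19 counts in the knockouts, against 0 and 0 in the controls, and passed the test (edgeR adjusted p = 2.01e-08). Its ratio of pooled counts was 31.2 with the controls set to the floor of 3 counts over both libraries. Such a floor ratio has no interval and is not a lower bound. H2bc7, the densest of the type, had 26.7 and 11 CPM per kb in the knockouts, against 1.04 and 0.520 CPM per kb in the controls (log2 fold 4.51 ± 0.70, edgeR adjusted p = 4.91e-07). H2bc3 and H2bc13 had pooled ratios of 36.7 (interval 12 to 183) and 70.1 (interval 11.9 to 2835). At the other end stood H2bc6, with the smallest difference of any tested member. It had 458 and 264 counts in the knockouts, against 152 and 194 in the controls, a log2 fold of 1.85 ± 0.33 (edgeR adjusted p = 1.14e-05). H2bc6 and H2bc4 have deposited lengths of 37455 and 8282 bp, the longest of the tested members. Their counts therefore cover far more than a histone coding region. Deposited lengths also exceeded the annotated ones in, for example, H4f16 (2879 against 439 bp), H2aw (1990 against 508 bp) and H1f2 (1561 against 725 bp). Of the annotated H2aw body, 0% was free of other gene bodies. The median log2 fold was 4.72 in the 31 tested members under 1 kb of deposited length. It was 4.14 in the 9 of 1 to 3 kb and 2.30 in the 2 over 3 kb. H2bc1 is described with its neighbour H2ac1 after the upstream windows.

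Histone H3, the protein that carries the mark itself, is encoded by 12 of the genes, and each of the 10 with counts had knockouts above controls. H3c1 was densest, with 34.6 and 8.66 CPM per kb in the knockouts, against 0.740 and 0.185 CPM per kb in the controls. Its counts were 100 and 31 in the knockouts, against 4 and 1 in the controls (log2 fold 5.45 ± 0.73, edgeR adjusted p = 1.52e-08). H3c10 had 38 and 9 counts in the knockouts, against 0 and 0 in the controls, a pooled ratio of 26.2 with the controls set to the floor. The controls thus held almost no reads over H3 genes, and 6 of the 10 had a control library at 0. H3c11 and H3c3 had knockout counts of 51 and 21, and of 45 and 15, against control counts of 0 and 4, and of 0 and 2. H3c11 reached a log2 fold of 4.87 ± 0.77, and H3c3 a pooled ratio of 50.1 (interval 13.3 to 423).

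Histone H4 genes, whose products form a tetramer with H3, had 11 of 13 members with counts, and knockouts lay above controls in all 11. H4c14 on chromosome 3 was densest, with 55.8 and 15.9 CPM per kb in the knockouts, against 1.14 and 0.284 CPM per kb in the controls (log2 fold 5.56 ± 0.72, edgeR adjusted p = 6.52e-09). H4c2 had 42 and 14 counts in the knockouts, against 2 and 0 in the controls, a pooled ratio of 46.8 (interval 12.4 to 396). H4c3 had 51 and 13 counts in the knockouts, against 1 and 3 in the controls (log2 fold 4.72 ± 0.77, edgeR adjusted p = 1.47e-06). H4f16, the lone gene on chromosome 6, had 117 and 58 counts in the knockouts, against 10 and 18 in the controls (log2 fold 3.43 ± 0.55, edgeR adjusted p = 1.3e-06). None of these H4 genes had overlapping groups.

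By cluster, knockouts lay above controls in 10 of 10 genes on chromosome 3, in H2aw and H2bu2 on chromosome 11, and in H4f16. On chromosome 13 they lay above in 40 of 53, below in 1, overlapped in 3, and 9 genes had no counts. The median log2 pooled ratio was 4.53 over chromosome 13 members and 4.60 over chromosome 3 members. On chromosome 3, H3c15 had 101 and 20 counts in the knockouts, against 7 and 5 in the controls, and H2bc21 had 132 and 50 in the knockouts, against 14 and 17 in the controls. H2ac19, at the low end, had 4 and 2 counts in the knockouts, against 0 and 0 in the controls. Its ratio of pooled counts was 3.34 with the controls set to the floor. H2bu2 had 4 and 1 counts in the knockouts, against 1 and 0 in the controls, and did not pass the test without a filter.

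The 9 gene bodies with no count are not spread evenly. H4c8, H2ac10, H3c8, H2bc9, H3c7, H4c6 and H1f3 form an unbroken run on chromosome 13 between 23531044 and 23555807, and H2ac23 and H2ac24 lie apart from it. All 50-base stretches of H2ac23 and H2ac24 recur elsewhere in the histone clusters, and 22.4% to 61.3% of those of the genes in the run do. A zero here says that no read was assigned, and its cause was not tested. The flanks of the run did hold reads: the window upstream of H3c8 had 145 and 68 counts in the knockouts, against 4 and 8 in the controls.

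Upstream of the start, the median log2 pooled ratio was 2.96 over 47 members. Knockouts lay above controls in 40 of 66 members, below in 2 (H2ac1 and H2bc1), overlapped in 8, and 16 had no counts, where 35.4% of genes with counts had knockouts above and 37.9% below. Without a filter 35 of 50 members passed as higher and 1 as lower, where 21.3% of all genes were called higher and 11.4% lower. With the filter 34 were tested, 30 were higher, 1 was lower and 3 (H2bu2, H2ac15 and H2bc1) did not pass, against 24% of all genes higher and 14.3% lower. In 12 of the 34, both controls held under 10 counts, so at least these windows entered the test only through the knockouts. Median levels over the 50 members with counts were 71.6 and 34.9 CPM in the knockouts, against 4.34 and 6.22 CPM in the controls, and over all genes 27.3 and 31.0 CPM in the knockouts, against 26.0 and 26.5 CPM in the controls. Without knockout replicate 1, 0 of 35 tested members passed with edgeR, as did 0% of all genes either way, although 26 members were higher at an unadjusted p under 0.05. The 31 members called with all libraries kept their direction there, at a median log2 fold of 2.44. Without control replicate 1, 7 members were called higher.

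H2bc21 had the largest upstream difference, with 116 and 61 counts in the knockouts, against 1 and 4 in the controls (log2 fold 5.48 ± 0.66, edgeR adjusted p = 7.86e-13). H2bc3 followed with 132 and 64 in the knockouts, against 4 and 5 in the controls (log2 fold 4.81 ± 0.62, edgeR adjusted p = 4.47e-11). The groups lay far apart in both of these H2B genes. Among H1 genes, H1f5 reached a log2 fold of 4.38 ± 0.58 and H1f1 of 3.70 ± 0.57. Among H3 and H4 genes, H3c8 reached 4.53 ± 0.62, H3c2 4.76 ± 0.71, H4c6 4.50 ± 0.61 and H4c14 4.72 ± 0.67. The H2A genes with the smallest p were less far apart, H2aw at 3.03 ± 0.51 and H2ac6 at 2.89 ± 0.55. Each of these 10 passed edgeR's test.

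**Figure D2:**
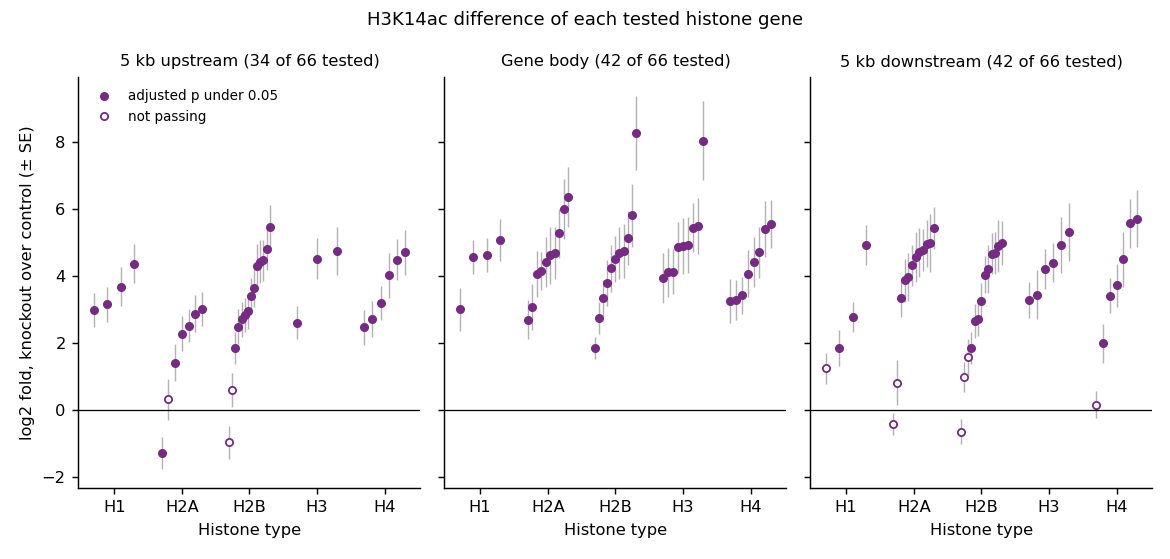
Log2 fold of knockout over control for each tested histone gene, by histone type, upstream, over the gene body and downstream, with bars of 1 SE and open circles for genes that did not pass. All 42 gene body points lie above 0, while H2ac1 and H2bc1 lie below 0 in both flanks, whose windows largely overlap between these genes.

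H2ac1 and H2bc1 encode the testis-type H2A and H2B and share a divergent promoter at the far edge of the chromosome 13 cluster, between 23933725 and 23934913. Upstream, H2ac1 had 13 and 37 counts in the knockouts, against 101 and 58 in the controls, a log2 fold of -1.28 ± 0.48 (edgeR adjusted p = 0.0265). H2bc1 had 27 and 38 counts in the knockouts, against 83 and 84 in the controls (log2 fold -0.96 ± 0.49, edgeR adjusted p = 0.101). In both windows each knockout library lay below each control library. The call for H2ac1 was lost, with its sign kept, with DESeq2, under 2 other scalings, with the replicate block and when any library was left out. Over the gene body, H2bc1 had 0 and 3 counts in the knockouts, against 10 and 7 in the controls, and H2ac1 had 4 and 4 in the knockouts, against 7 and 7 in the controls. Scaled for depth, H2ac1 stood at 0.740 and 0.596 CPM in the knockouts, against 0.691 and 0.693 CPM in the controls, so the groups overlapped there. Downstream, H2bc1 had 18 and 41 counts in the knockouts, against 110 and 66 in the controls, and H2ac1 had 27 and 40 in the knockouts, against 89 and 84 in the controls. Neither passed there, at log2 folds of -0.64 ± 0.38 and -0.40 ± 0.34. On the annotated positions, the window downstream of each gene largely overlaps the window upstream of the other. These flank values therefore share reads and are not separate results. The printed H2ac1 promoter holds a TATA box, CCAAT, the octamer and the H1 AC box.

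Downstream of the gene end, knockouts lay above controls in 44 of 66 members, below in 1, overlapped in 7, and 14 had no counts, where 29.2% of genes with counts had knockouts above and 28.8% below. Without a filter 36 of 52 passed as higher and 0 as lower, where 6.79% of all genes were called higher and 0.799% lower. With the filter 35 of 42 tested members were higher and 0 lower, against 10.8% of all genes higher and 2.29% lower. In 16 of the 42, both controls held under 10 counts, so at least these windows entered the test only through the knockouts. DESeq2 called 31 higher and limma 33, each with 0 lower, and at an unadjusted p under 0.05 edgeR gave 38 higher and 0 lower. H4c8 had the largest difference, with 259 and 90 counts in the knockouts, against 6 and 8 in the controls (log2 fold 5.72 ± 0.86, edgeR adjusted p = 0.000705). H4c2 had 91 and 28 in the knockouts, against 4 and 1 in the controls (log2 fold 5.58 ± 0.73, edgeR adjusted p = 0.00062). In both H4 genes the knockout counts lay well above the controls. By type, H2ac13 reached 5.45 ± 0.64, H2ac11 4.79 ± 0.64, H2bc7 4.67 ± 0.62, H2bc13 4.05 ± 0.55, H3c13 4.41 ± 0.58, H3c3 4.21 ± 0.60, H1f3 4.94 ± 0.61 and H1f4 2.78 ± 0.45.

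In clusters this dense, a flank of 1 gene often covers another. The downstream window held the start of another histone gene in 29 of 66 members, and all 20 tested among these were higher, with a median log2 fold of 4.71. In the 22 tested members whose window held none, 15 were higher and 7 (H2bc14, H2ac6, H1f1, H2bc1, H2ac1, H2bc21 and H4f16) did not pass, with a median of 2.70. Upstream, 52 windows held another histone start, and 25 of the 28 tested were higher and 1 lower. Of the 6 tested upstream windows with none, 5 were higher. Windows covered almost whole by those of other genes were mostly at 0. Of 19 upstream windows with at most 5% of their bases free of another gene's window, 14 held no count, against 2 of 47 with more free bases. Over all genes the shares were 63.5% and 0.823%. The deposited lengths fell within 20% of the annotated length for 37 of the 66 members, so the windows reconstructed here are approximate.

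**Figure D3:**
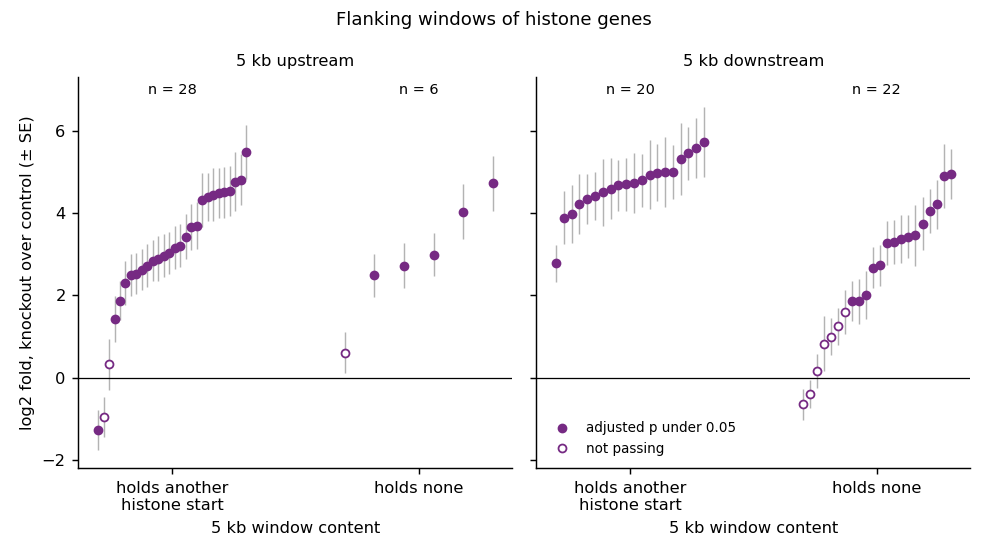
Log2 fold of knockout over control (± 1 SE) for each tested upstream and downstream window, split by whether the window holds the start of another histone gene. All 20 downstream windows with another start passed, against 15 of 22 with none.

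The chromosome 13 span also holds 53 other genes of the tables, which allows a look at the DNA between the histone genes. Of these, 36 are vomeronasal receptor genes of the Vmn1r family, which are expressed in sensory neurons. Over the gene body 35 had counts, and their median log2 fold without a filter was -0.10. All 36 together held only 68 and 86 counts in the knockouts, against 130 and 137 in the controls, and with the filter 0 were tested. Without it 0 passed edgeR's test, with 1 higher at an unadjusted p under 0.05. With so few counts a single gene could pass only at a large difference. Upstream, 29 were tested, 0 were higher and 2 lower. Their summed gene body signal was 12.6 and 12.8 CPM in the knockouts, against 12.8 and 13.6 CPM in the controls. Of 16 further neighbours, 5 of 15 tested gene bodies were higher and 0 lower, with 1 lower at an unadjusted p under 0.05 and 1 called lower by limma, where 23.1% of all gene bodies were higher and 15.2% lower. Upstream, 4 of 16 were higher and 1 lower (Slc17a4, log2 fold -1.27 ± 0.53, edgeR adjusted p = 0.0471), where 24% of all genes were higher and 14.3% lower. Downstream, 5 of 16 were higher (Pom121l2, Prss16, C230035I16Rik, Btn1a1 and Hfe) and 0 lower, where 10.8% of all genes were higher and 2.29% lower. The gene bodies that passed were those of Prss16, a serine protease gene (log2 fold 3.35 ± 0.42, edgeR adjusted p = 2.03e-09), Abt1 at 2.96 ± 0.63, C230035I16Rik at 2.78 ± 0.61, Zfp184 at 2.11 ± 0.45, and Hfe, an iron regulator, at 2.07 ± 0.42. Slc17a1, Slc17a2, Slc17a3 and Slc17a4, which encode phosphate and anion transporters, did not pass there, at log2 folds of 0.00, -0.60, -0.75 and -0.16. They lie between the body of the cluster and the H2bc1 and H2ac1 pair. H1f6, the testis linker histone inside the span and not a member, was higher at 2.76 ± 0.67 (edgeR adjusted p = 0.000839). No other gene of the tables lay inside the chromosome 3 span.

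**Figure D4:**
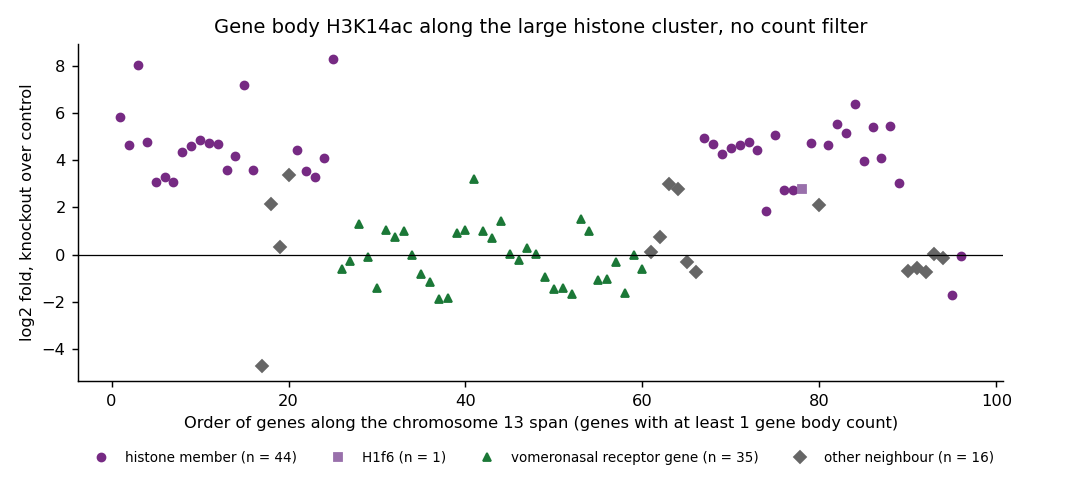
Gene body log2 fold of knockout over control without a count filter, for each gene with a count in the chromosome 13 span, in order along the chromosome. Most histone members lie above 2 on both sides of a block of vomeronasal receptor genes that scatter around 0, and the last members, H2bc1 and H2ac1, lie below 0.

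Summed over the 66 genes, the share of all gene body counts was 0.0752% and 0.0238% in the knockouts, against 0.00288% and 0.00407% in the controls. The mean share was 0.0495% ± 0.0363 in the knockouts and 0.00347% ± 0.000838 in the controls (SD, n = 2 each), a 14.2-fold ratio. Upstream the share was 0.317% and 0.174% in the knockouts, against 0.0420% and 0.0533% in the controls, and downstream it was 0.563% and 0.230% in the knockouts, against 0.0474% and 0.0613% in the controls. The groups did not overlap in any class. A two-sided exact permutation test over the libraries gave p = 0.33 in each class, which is the smallest value 4 libraries allow. By type, the gene body ratio was 29.0 for H1, 20.5 for H2A, 7.71 for H2B, 36.2 for H3 and 20.9 for H4. The H2B share includes the long H2bc6 region.

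**Figure D5:**
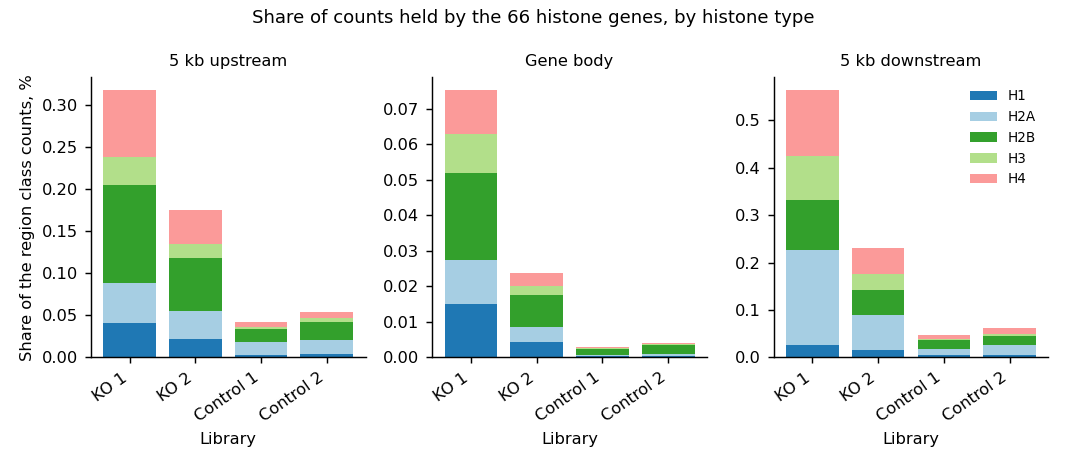
Share of each library's counts that fell on the 66 histone genes, in percent, stacked by histone type, in the upstream, gene body and downstream classes (linear axes from 0, each with its own scale). Knockout replicate 1 holds the largest share and both knockouts stand above both controls in each class.

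Other genes of histone supply were counted in the same way, beside the shares over all genes, which were 23.1% of gene bodies called higher and 15.2% lower, 24% and 14.3% upstream, and 10.8% and 2.29% downstream. Of the replication-independent histone genes, a list that included H1f6, 7 of 12 tested gene bodies were higher and 0 lower. The median log2 fold was 1.74, with 1 gene lower at an unadjusted p under 0.05 and 1 called lower by limma. H2az1, which encodes the variant H2A.Z, had 19.4 and 6.41 CPM in the knockouts, against 0.593 and 0.297 CPM in the controls (log2 fold 4.80 ± 0.65, edgeR adjusted p = 2.46e-08). H2ax, the variant phosphorylated at DNA breaks, and H2aj followed at 4.65 ± 0.64 and 4.20 ± 0.48. Upstream 5 of 15 were higher and 1 lower (H2ap, at -1.68), and downstream 5 of 14 were higher.

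Genes for transcription and processing of histone pre-mRNA were higher in 20 of 28 tested gene bodies and 0 were lower, also at an unadjusted p under 0.05 and with DESeq2 and limma, with a median log2 fold of 1.20. Snrpg, an Sm protein gene, had 19.2 and 7.90 CPM in the knockouts, against 0.593 and 1.88 CPM in the controls (log2 fold 3.43 ± 0.57, edgeR adjusted p = 2.81e-06). Srrt, Cdk2, a cell cycle kinase, and Hinfp, a factor of H4 transcription, stood at 2.19 ± 0.46, 2.15 ± 0.49 and 2.25 ± 0.53. Upstream 18 of 29 were higher, among them Slbp, the stem-loop binding protein, at 3.36 ± 0.61, and downstream 5 of 22. Histone chaperone genes were higher in 15 of 24 tested gene bodies and 0 were lower, also at an unadjusted p under 0.05 and with DESeq2 and limma, with a median of 1.35. Among them were Daxx, a chaperone of H3.3, at 3.29 ± 0.59, Anp32e, a chaperone of H2A.Z, at 2.31 ± 0.42, Ssrp1 at 1.89 ± 0.41 and Nasp at 2.23 ± 0.49. Upstream 15 of 23 were higher, and downstream 2 of 20, a share near that of all genes.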

How the data were processed

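H3K14ac CUT&Tag counts of 2 knockout and 2 control LSK libraries were used. The HBO1 library, made from controls, was not analysed here. The deposited values are whole-number counts per gene in 3 region classes, with a deposited length in bp for each gene. Per the submitters' processing notes, the authors used featureCounts and the mm10 build. Sources used here do not give the aligner, read filters or duplicate handling. The whole-series and per-library tables were compared over 12 columns and 0 values differed. Symbols were found for 25271 and positions for 25201 of 27179 genes in RefSeq GRCm38.p6, which has the mm10 coordinates.

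Counts were tested with edgeR 4.0.16 (quasi-likelihood, TMM scaling, minimum count 10, minimum total 15) on R 4.3.3, with Benjamini-Hochberg adjustment over all genes of a region class and a threshold of 0.05. CPM values use the TMM scaled totals. The SE of a log2 fold was taken as the absolute fold over the root of the F statistic. Alternatives were DESeq2 1.42.0, limma 3.58.1, other scalings, filters, blocks, a GC correction (loess span 0.3) and leaving out each library. Ratios of pooled counts have 95% exact intervals, which, like the floor of 3 counts, cover counting error only, since reads carry no molecular identifiers. On simulated counts with 200 changed genes, a 4-fold change was recovered for 67.2% of changed genes upstream (22704 genes tested), 75.9% over gene bodies (21118) and 72.2% downstream (21144), and a 16-fold change for 100% in each class. Tables were handled with pandas 2.3.3, numpy 2.4.6 and scipy 1.17.1 in Python 3.11.15, and plots drawn with matplotlib 3.10.9.

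The members and lists were chosen with earlier results of these data known. Named genes were the 4 tested members of each type with the smallest adjusted p over the gene body, 2 of each type in the flanks, those that fell, those with the largest and smallest difference, the densest of each type, and members outside chromosome 13. Up to 4 genes with the smallest p were taken from each list. The neighbours named were those that passed and the Slc17a genes, chosen after their values were seen.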

Additional observations from a re-analysis of the deposited data

How the results depend on the processing

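None of the 43 named gene results, the counts of calls or the shares of counts changed direction under an alternative run for it. The all-gene median log2 fold did change sign in each class. Upstream it was 0.83 with receptor scaling and -0.09 as reported, and over gene bodies -0.07 with GC correction and 0.02 as reported. Downstream it was 0.27 with receptor scaling and -0.03 as reported. For the gene body, 42 members were called higher; a mean count of at least 50 left 8 tested and 8 higher, and leaving out a library gave 35 to 50. Upstream, 30 were higher; a mean count of at least 50 left 11, leaving out a library gave 0 (without knockout replicate 1) to 22, members without an overlapping window numbered 3, and those whose window held no other histone start 5. The upstream lower call, 1 in all, became 0 with receptor scaling, pooled totals, DESeq2, a mean count of at least 50, the replicate block with and without GC correction, each library left out (0 to 0) and both window subsets, and 2 with GC correction alone and with the crossed block. Downstream, 35 were higher; a mean count of at least 50 left 9, members without an overlapping window numbered 7, those with no other histone start 15, and leaving out a library gave 27 to 40. The window subset by histone start and the crossed block were chosen after seeing the data. The cause was not tested, except that subsets and stricter filters test fewer genes. Over the total of all 3 classes, the difference in share was 0.0321 points upstream and 0.0358 points downstream, against 0.198 and 0.342 points within the class.

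The deviations of same-numbered libraries correlated negatively, at -0.28 upstream, -0.36 over gene bodies and -0.22 downstream. This does not show whether such libraries were processed together. With the replicate block 29, 42 and 35 members were higher upstream, over gene bodies and downstream. Over all genes 14.97%, 13.1% and 9.73% were called higher with that block. With the crossed pairing 30, 42 and 37 members were higher, against 27.8%, 30.4% and 15.4% of all genes. The replicate block changed no other call among the named genes than that of H2ac1.

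Under other scalings, the all-gene median log2 fold shifted by up to 0.92 upstream, 0.65 over gene bodies and 0.31 downstream (receptor scaling), and by -0.18, 0.35 and -0.19 with library totals. With receptor scaling, 21.1% of gene bodies were called higher and 0.869% lower over all genes, and with library totals 29.8% and 4.62%. Depth limits single genes most: 25 of the 57 gene bodies with counts held at most 3 control counts in all.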
